A study of Mus musculus with 2 samples.

Results

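The cytosolic ribosomal protein genes encode the protein subunits of the ribosome. They were chosen by symbol (Rps or Rpl followed by a digit, Rpsa, and Rplp0, Rplp1 and Rplp2), leaving out Rps6k kinases, symbols marked as pseudogenes and rows averaging under 1 CPM over both libraries (CPM are UMIs scaled to a common library total). The rule gave 84 members out of 32285 genes, and 11322 genes in all averaged at least 1 CPM. Of 86 matching rows, Rpl3l and Rpl10l fell below that limit with 0 UMIs (unique molecular identifiers, each standing for 1 captured transcript) in either library. The member closest above it was Rpl39l, at a mean of 3.02 CPM. Among the members, 34 carry Rps symbols and 50 carry Rpl symbols. Rps19bp1, encoding a regulator of the deacetylase SIRT1, and Rpl7l1, encoding a relative of Rpl7 that acts in ribosome assembly, match by symbol but are not ribosomal subunits.

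Single-cell RNA sequencing with a 10x Genomics 3′ kit was done on CD8 T cells of the C57/B6N strain, isolated from mesenteric lymph nodes, cultured under Tc17 (interleukin-17-producing CD8) conditions and restimulated for 3 h with PMA at 100 ng/ml plus ionomycin at 10 μg/ml. The first library was made from Nfatc1 f/f × Cd4-Cre mice, in which Cre acts in T cells of both the CD4 and the CD8 lineage, and the second from wild-type mice. How many animals were used, their age and whether they were pooled is not stated in the labels. The design therefore has 1 library per genotype, so no test was run and every interval below covers counting error of UMIs or cells only.

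The library labelled Nfatc1-deficient held 709 of 754 barcodes after barcodes with fewer than 500 genes or over 10% mitochondrial UMIs were left out, and the library labelled wild type held 1018 of 1149. Their depths were 17898193 and 24452538 UMIs, and 0 barcodes occurred in both. The targeted gene ran against the labels. Nfatc1 stood at 136 CPM in the deficient-labelled library and at 39.8 CPM in the wild-type-labelled one, 3.42-fold higher (95% counting interval 3.17 to 3.68), and 3′ tags outside the deleted part do not check a deletion. Directions below rest on the labels alone. All 10 CD8 T-cell markers were measured, with summed levels of 3696 and 3778 CPM. Natural killer cell markers summed to 1.17 and 1.68 CPM, with Ncr1 and Klrb1c at 0 in both libraries. B-cell markers (8 listed, 4 reaching 1 CPM) summed to 68.7 and 82.3 CPM, myeloid markers to 97.6 and 135 CPM, of which Cst3 made up 97.0 and 133 CPM, dendritic-cell markers to 5.14 and 8.67 CPM, and CD4 T-cell markers to 31.7 and 34.1 CPM, nearly all Cd40lg. C1qa, S100a8, Clec9a and Siglech had 0 UMIs in both libraries. The part of these cells in the results below was not tested.

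Ribosomal protein mRNAs are among the most abundant transcripts of a dividing cell. Vertebrate ribosomal protein mRNAs begin with a terminal oligopyrimidine (TOP) tract, a C at the cap followed by a run of C and T, through which the kinase mTORC1 and the RNA-binding protein LARP1 adjust their translation and stability as a group. Activated T cells raise ribosome production as they grow, and most of the proteins are needed in equal numbers in each ribosome. The start windows of 7 members are shown, 4 with long TOP-like runs beside Rpl5, Rpl36al and Rps27l, whose ratios between the libraries departed from those of most members. Rpl29, the member with the lowest ratio, had no entry among the annotated starts. Each window holds 30 bases of RefSeq sequence on the transcribed strand, 10 before and 20 after the annotated start, in the GRCm38.p6 build. Capitals mark a run that begins with C at the start itself and goes on with at least 4 further bases that are each C or T.
Rpl15, chr14:18270967-18270996, minus strand: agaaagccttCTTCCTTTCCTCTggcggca
Rpl35, chr2:39005112-39005141, minus strand: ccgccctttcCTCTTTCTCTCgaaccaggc
Rps10, chr17:27635225-27635254, minus strand: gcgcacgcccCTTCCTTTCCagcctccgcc
Rps6, chr4:86857348-86857377, minus strand: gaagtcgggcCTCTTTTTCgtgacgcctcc
Rpl5, chr5:107900518-107900547, plus strand: cgtcgcttgcgtgctggtggtgctacatac
Rpl36al, chr12:69184048-69184077, minus strand: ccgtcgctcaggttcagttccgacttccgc
Rps27l, chr9:66946076-66946105, plus strand: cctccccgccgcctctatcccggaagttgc
The first 4 windows carry such a run, of 13 bases in Rpl15, 11 in Rpl35, 10 in Rps10 and 9 in Rps6. The last 3 carry none at the annotated base, nor does the second annotated start of Rps27l. Annotated starts can miss the cap by several bases. Of the 64 members with an entry in the table, 14 (21.9%) had a run at the start, against 3.01% of 27025 symbols, and 35 (54.7%) had one between 5 bases before and 15 after it, against 27.7%. Rps27l is among these 35, through a short run that begins just after its annotated base. Only the transcribed strand was searched. Members with a run at the annotated start had a median log2 ratio between libraries of -0.29 and members without one -0.31. Rpl15, with its run of 13 bases, was itself among the lowest members (-0.46).

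The ribosomal protein genes took a smaller share of the transcripts in deficient-labelled cells. Together they made up 24.1% of UMIs in the deficient-labelled library (4322377 UMIs) and 29.9% in the wild-type-labelled library (7308727 UMIs), 1.24-fold lower (1.24 to 1.24). The median cell stood at 24.3% in the deficient-labelled library (quartiles 21.8 and 26.7%) and at 30.4% in the wild-type-labelled one (27.4 and 33.2%). The wild-type-labelled median was not reached by 94.4% of deficient-labelled cells, and 79.8% of them lay below the wild-type-labelled lower quartile. The exact binomial interval of the first value, 92.4 to 95.9, counts cells as independent, although they share a library. The distributions overlapped at their edges, with 5th and 95th percentiles of 17.7 and 30.8% in deficient-labelled cells and of 22.5 and 37.9% in wild-type-labelled cells. In numbers of molecules, the median cell held 5141 ribosomal protein UMIs in the deficient-labelled library and 6322 in the wild-type-labelled library, beside 16281 and 14306 UMIs of all other genes.

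Part of the other transcripts were cytokine, chemokine and granule genes, whose list of 33 genes held 10.0% of all UMIs in deficient-labelled cells and 4.32% in wild-type-labelled cells. With that list left out of the total, the ribosomal protein share was 26.8% among deficient-labelled cells against 31.2% among wild-type-labelled cells, a gap of -4.39 percentage points in place of -5.74. Both subunits contributed. The Rps share was 10.9% among deficient-labelled cells against 13.4% among wild-type-labelled cells, and the Rpl share 13.3% against 16.5%. The gap was present at each depth. Among cells in the lower tertile of UMI counts the median shares were 25.1% (deficient-labelled) and 31.2% (wild-type-labelled), in the middle tertile 23.9 and 30.7%, and in the upper tertile 24.1 and 29.3%. Median mitochondrial shares were 2.69% in deficient-labelled and 3.17% in wild-type-labelled cells, and the nuclear RNA Malat1 stood at 4949 and 4402 CPM. The part of these differences in the gap was not tested.

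Cells were also divided by their UMIs of a G2/M gene list after thinning to 5000 UMIs. Among deficient-labelled cells, the 27 with at least 20 such UMIs had a median ribosomal protein share of 24.3%, as did the 643 with fewer than 5. Among wild-type-labelled cells, the 52 with at least 20 had a median of 27.4%, against 30.8% for the 875 with fewer than 5. The difference between these 2 contrasts was not tested. Of the 25 G2/M genes, 24 were lower in the deficient-labelled library (median log2 ratio -0.43), where 50.6% of all genes tested were. Of 25 S-phase genes 16 were lower (-0.08), and of 17 genes of naive and memory cells 10 (-0.25), shares near that of all genes. The part of these in the ribosomal protein gap was not tested.

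**Figure D1:**
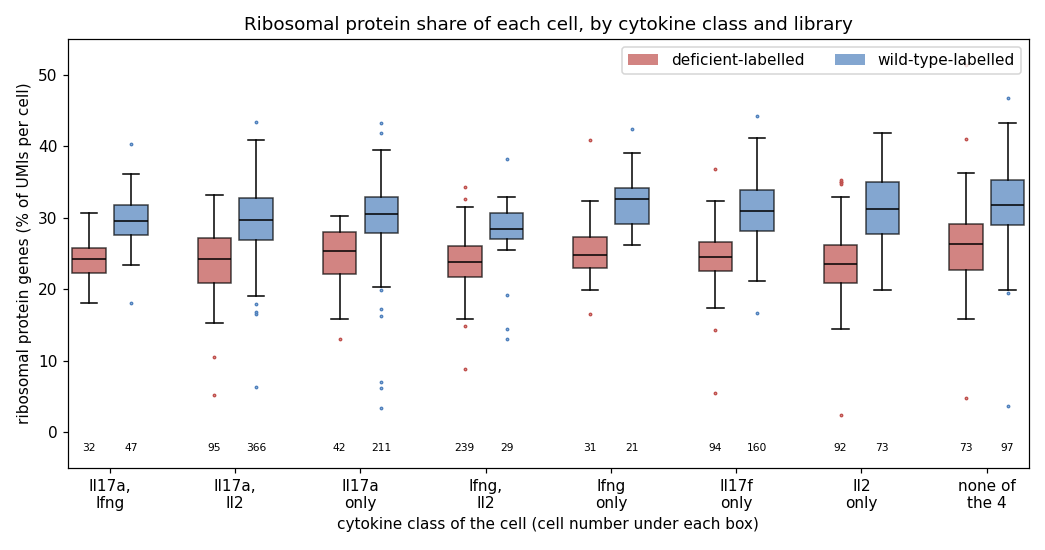
Ribosomal protein share of UMIs in each cell (y axis, percent) for 8 cytokine classes (x axis), with the deficient-labelled library at the left of each class and the wild-type-labelled library at the right; boxes give quartiles and medians, whiskers reach 1.5 times the box height, points are cells beyond them, and cell numbers stand underneath. In all 8 classes the deficient-labelled median lies below the wild-type-labelled one, with gaps of -4.59 to -7.71 percentage points.

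Across cytokine classes the median ribosomal protein share ranged over 2.73 percentage points in the deficient-labelled library and 4.16 in the wild-type-labelled one, and within each class the deficient-labelled median was lower. Cells were thinned to 5000 UMIs, counted as producers of Il17a, Il17f, Il2 or Ifng at 5 or more UMIs, and sorted into 8 classes that do not overlap. Il17a-only cells lack Il2 and Ifng, and Ifng-only cells lack Il17a and Il2. Il17f was not considered in any class with Il17a or Ifng, nor Il2 in producers of both Il17a and Ifng. Cells making Il17a with Il2 lack Ifng, and cells making Ifng with Il2 lack Il17a. Il17f producers below lack Il17a and Ifng but may make Il2, and Il2 producers lack the other 3 cytokines. Thinning left out 11 deficient-labelled and 14 wild-type-labelled cells. Class medians ran from 23.6 to 26.3% in the deficient-labelled library and from 28.4 to 32.6% in the wild-type-labelled library. The highest deficient-labelled median was below the lowest wild-type-labelled one.

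Cells with none of the 4 cytokines had the highest median in the deficient-labelled library (26.3%, 73 cells) and the second highest in the wild-type-labelled library (31.8%, 97 cells). Among deficient-labelled cells they were also the shallowest class (15118 UMIs per cell in the median). Cells making Il17a without Il2 or Ifng stood at 25.3% (42 deficient-labelled cells) and 30.5% (211 wild-type-labelled cells), 0.97 and 1.37 points below the cells with none. Cells making Il17a with Il2 stood at 24.3% (95 cells) and 29.7% (366 cells). Producers of both Il17a and Ifng stood at 24.2% (32 cells) and 29.6% (47 cells). The quartile ranges of all these classes overlapped that of the cells with none in the same library.

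Cells making Ifng with Il2 were low in both libraries, at 23.8% (239 deficient-labelled cells) and 28.4% (29 wild-type-labelled cells), 2.48 and 3.42 points below the cells with none. This class also gave the largest share of its UMIs to the cytokine list, 14.9 and 9.19%. Over totals without that list its summed share was 27.9% among deficient-labelled cells against 31.3% among wild-type-labelled cells, beside 27.3 and 31.5% for the cells with none. Cells making Ifng without Il17a or Il2 stood at 24.9% (31 cells) and 32.6% (21 cells). Il17f producers without Il17a or Ifng stood at 24.5% (94 cells) and 31.0% (160 cells). Il2 producers without the other 3 cytokines stood at 23.6% (92 cells) and 31.2% (73 cells). Without the cytokine list, the 8 summed shares lay between 25.1 and 28.3% in the deficient-labelled library and between 30.5 and 33.0% in the wild-type-labelled library, which left the 2 ranges apart.

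**Figure D2:**
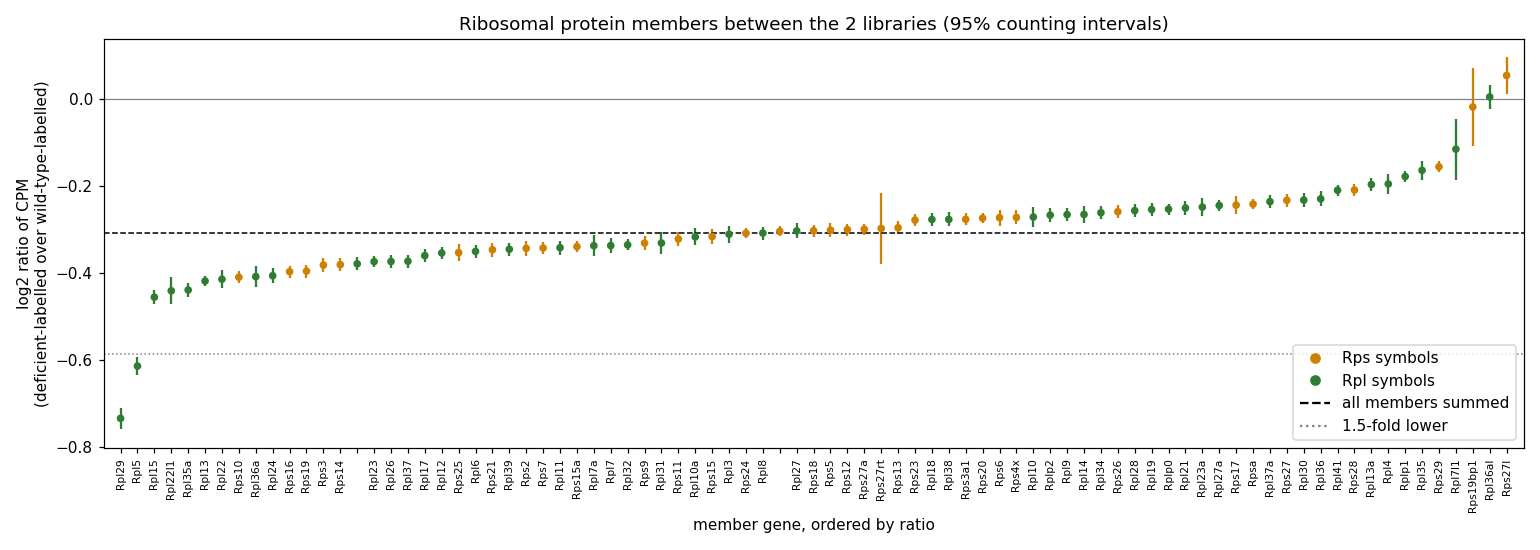
Log2 ratio of CPM, deficient-labelled over wild-type-labelled (y axis), for the 83 members reaching 20 CPM in 1 library, ordered along the x axis; bars are 95% counting intervals, the dashed line is the ratio of all members summed and the dotted line marks 1.5-fold lower. A few points carry no gene label. Most members sit close to the dashed line, with Rpl29 and Rpl5 below the dotted line and Rps19bp1, Rpl36al and Rps27l near 0.

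Nearly all members shared this lower level, and to a similar degree. Of 84 members, 81 were lower in the deficient-labelled library, where 50.6% of all 11322 genes tested were lower. Their median log2 ratio of CPM (with 1 CPM added) was -0.30, with quartiles of -0.35 and -0.25, whereas the median of all genes tested was -0.0045 with an SD of 0.49. Within 0.10 of their median lay 64 members. The 77 members averaging at least 1000 CPM had an SD of 0.089 on the log2 scale, and the 57 other genes of that abundance had an SD of 0.80 and a median of -0.07. At least 1.5-fold lower were 2 members, where 8.29% of all genes were, and at least 1.5-fold higher was 1 member, where 5.87% were. That member, Rpl39l, was also more than 2-fold higher, where 2.08% of all genes were. Rps and Rpl genes had medians of -0.30 and -0.31.

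Core proteins of both subunits illustrate the common shift. Rps6, the subunit phosphorylated by S6 kinases downstream of mTORC1, stood at 2139 CPM among deficient-labelled cells against 2585 CPM among wild-type-labelled cells, a log2 ratio of -0.27. Rpl3, which lies at the peptidyl transferase centre, stood at 1832 and 2273 CPM (-0.31). All members summed had a ratio of -0.31. Rpl10a and Rpl38 had log2 ratios of -0.32 and -0.28, Rps25 had -0.35, and Rpl39, at the exit tunnel, had -0.35.

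The mRNAs of the ribosomal stalk proteins, which recruit elongation factors, were lower by less than the pool. Only that of Rplp1 lay outside the quartiles of all members. Rplp0 stood at 4538 CPM among deficient-labelled cells against 5410 CPM among wild-type-labelled cells, Rplp2 at 2950 and 3551 CPM, and Rplp1 at 5419 and 6134 CPM. Their log2 ratios were -0.25, -0.27 and -0.18, against -0.31 for all members summed. Rplp1 took a larger part of the ribosomal protein UMIs in deficient-labelled cells of all 8 classes, as did Rps29. Rpsa, a small-subunit protein also known as the laminin receptor, was at 4938 and 5841 CPM (-0.24). Rps29 and Rpl35, both core subunits, had the smallest shortfalls among genes of this abundance, with log2 ratios of -0.16 each.

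At the other end stood Rpl29 and Rpl5. Rpl29 (chromosome 9, 106429454 to 106431568, mm10), a large-subunit protein that mice can live without, was at 1065 CPM among deficient-labelled cells against 1771 CPM among wild-type-labelled cells, 1.66-fold lower (1.63 to 1.69). Rpl5 (chromosome 5, 107900502 to 107909005), which with Rpl11 forms the 5S particle that can bind the p53 regulator MDM2, was at 1464 and 2241 CPM, 1.53-fold lower (1.51 to 1.55). Its partner Rpl11 stayed near the pool at 2749 and 3484 CPM, a log2 ratio of -0.34. The next lowest were Rpl15 (-0.46), Rpl22l1 (-0.44), Rpl35a (-0.44) and Rpl13 (-0.42).

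Relative to the pool, that is, as a share of all ribosomal protein UMIs, 3 of 84 members had a log2 ratio beyond 0.32 on either side. Of all genes tested, 57.6% were that far from the pool. The members make up the pool, whose log2 ratio was -0.31, while the median of all genes was -0.0045. A gene at that median thus lies near the 0.32 limit, so the 57.6% does not measure how alike the members are. The 3 members were Rpl29 (log2 -0.43, interval -0.45 to -0.40), Rps27l (0.36, 0.32 to 0.40) and Rpl39l (2.82, 2.14 to 3.56). Rpl36al (0.31) and Rpl5 (-0.31) lay just short of that size. Rps27l (chromosome 9, 66946086 to 66949516), a copy of Rps27 known as a p53 target, was level at 461 CPM among deficient-labelled cells against 445 CPM among wild-type-labelled cells. Rpl36al (chromosome 12, 69182731 to 69184083), an autosomal copy of the X-linked gene Rpl36a, was level too, at 971 and 969 CPM. So were the non-subunit Rps19bp1 (98.7 and 100.0 CPM) and, more loosely, Rpl7l1 (156 and 169 CPM).

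**Figure D3:**
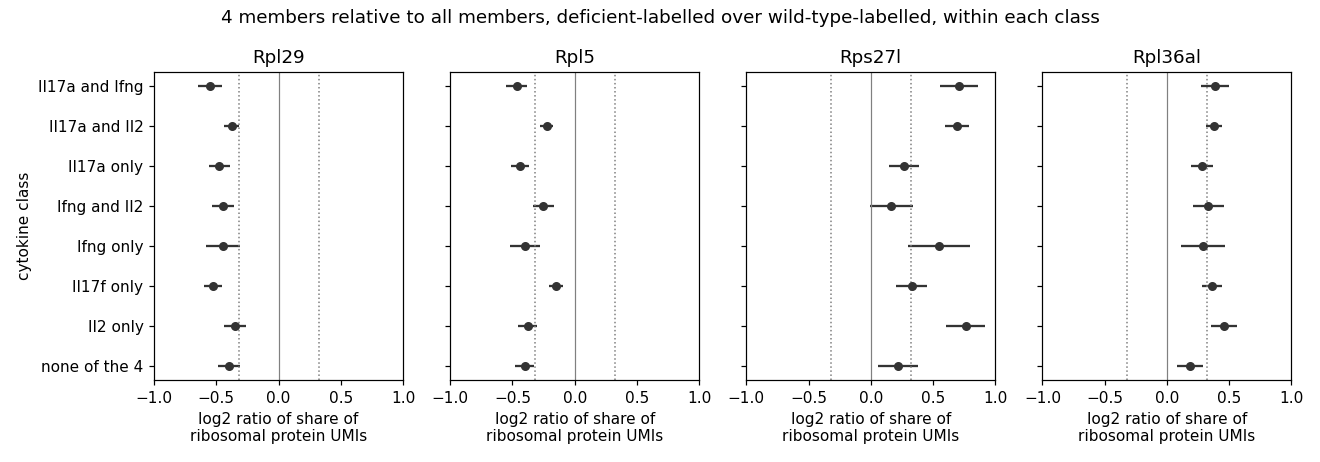
Log2 ratio, deficient-labelled over wild-type-labelled, of the share of ribosomal protein UMIs taken by Rpl29, Rpl5, Rps27l and Rpl36al (x axes) within each of 8 cytokine classes (y axis); bars are 95% counting intervals and dotted lines mark 0.32 either way. Rpl29 and Rpl5 lie below 0 and Rps27l and Rpl36al above 0 in every class.

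These 4 departures had the same direction in all 8 cytokine classes. The classes divide the same cells from which the 4 genes were picked, so they are not replicates. Rps19bp1, Rps29, Rplp1 and Rpl15 also each kept the same direction in all 8. The Rpl29 ratio to the pool ran from -0.55 in producers of both Il17a and Ifng to -0.35 in Il2 producers without the other 3 cytokines, beyond 0.32 in all 8. For Rpl5 it ran from -0.46 to -0.15, beyond that size in 5 classes, and the weakest value was that of Il17f producers. For Rpl36al it ran from 0.19 in cells with none of the 4 to 0.46 in Il2 producers. Rps27l varied most, from 0.16 in cells making Ifng with Il2, where the interval of -0.01 to 0.34 included 0, to 0.76 in Il2 producers. Rpl22l1 was lower relative to the pool in 7 classes, down to -0.49, and stood at 0.04 in cells making Ifng with Il2, where the interval of -0.08 to 0.16 included 0.

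Copies of ribosomal protein genes differed in how they followed their partners. The Rpl36al share of the Rpl36a and Rpl36al UMIs was 45.5% in the deficient-labelled library (45.0 to 46.0) and 38.5% in the wild-type-labelled library (38.1 to 38.9). Across the 8 classes it lay between 40.7 and 48.7% in the deficient-labelled library and between 37.0 and 39.5% in the wild-type-labelled library, without overlap. Rps27l made up 12.9% of its pair with Rps27 (12.6 to 13.1) in the deficient-labelled library and 10.8% (10.6 to 11.0) in the wild-type-labelled library, with overlapping class ranges of 10.5 to 16.9% and 8.05 to 15.1%. Rpl22l1, whose partner Rpl22 is needed for the development of αβ T cells in mice, made up 31.7% (31.2 to 32.1) of its pair in deficient-labelled and 32.1% (31.7 to 32.4) in wild-type-labelled cells, intervals that overlap. Its class ranges were 24.6 to 35.3% and 30.6 to 37.7%. Within classes the share could be lower in deficient-labelled cells with separate intervals, as in Il17a-only cells, at 24.6% (23.0 to 26.2) against 30.7% (30.1 to 31.3). In cells making Ifng with Il2, the most numerous deficient-labelled class, it was 35.3% (34.5 to 36.0) against 34.6% (32.4 to 36.8). Reads shared between such copies, or between Rps27 and its retrogene Rps27rt, may have been split or lost by the counting.

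Rpl39l, a copy of Rpl39 best known from the testis, had the only large ratio upward and the fewest molecules. It had 92 UMIs in 16 of 709 deficient-labelled cells and 22 UMIs in 6 of 1018 wild-type-labelled cells, or 5.14 and 0.900 CPM. The ratio was 5.71-fold (3.56 to 9.56). However, 21 of the 92 UMIs came from a single deficient-labelled cell and 10 of the 22 from a single wild-type-labelled cell. The counting interval thus understates the error of the ratio.

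**Figure D4:**
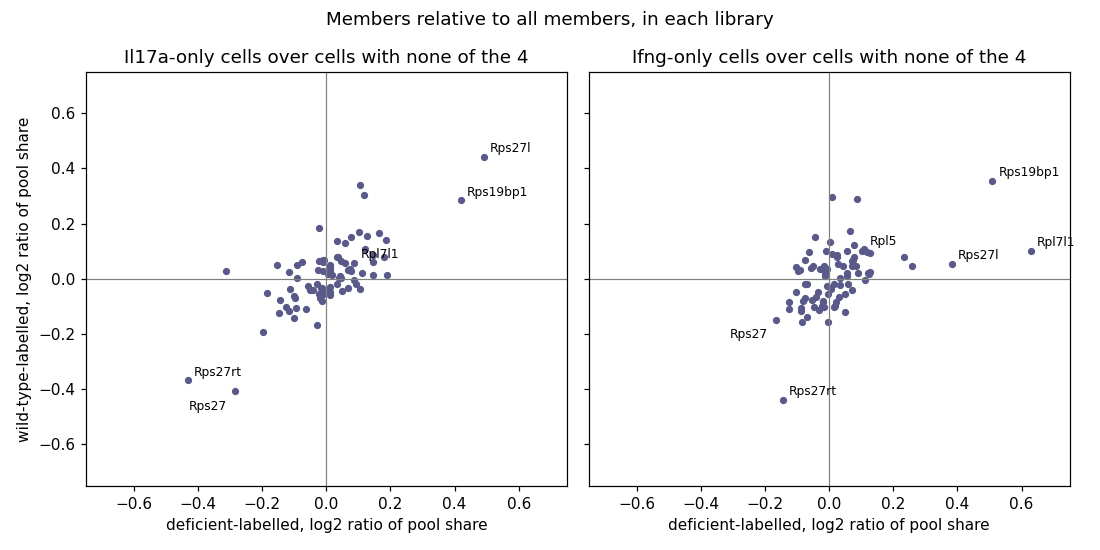
Log2 ratio of each member's share of ribosomal protein UMIs in a producer class over cells with none of the 4 cytokines, in the deficient-labelled library (x axis) and the wild-type-labelled library (y axis), for 83 members; left, Il17a-only cells, and right, Ifng-only cells. Most members lie within 0.2 of 0 on both axes, with Rps27l at the upper right and Rps27 and Rps27rt at the lower left for Il17a-only cells.

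Within a library, the make-up of the ribosomal protein pool varied little between cytokine classes, with SDs of the members' log2 ratios to the pool between 0.073 and 0.131 over the 7 contrasts and both libraries. All 7 contrasts share the cells with none of the 4 cytokines. The shares over all genes given for these contrasts include genes down to 20 CPM, while 77 members average at least 1000 CPM. Low counts vary more, and no share at matched abundance was computed. In cells making Il17a without Il2 or Ifng, against cells with none of the 4, 2 of 83 members had log2 ratios to the pool beyond 0.32 on the same side in both libraries, where 17.8% of 5584 genes reaching 20 CPM were. These were Rps27l, at 568 against 422 CPM in the deficient-labelled library and 552 against 430 CPM in the wild-type-labelled library, and Rps27rt, at 96.1 against 135 CPM and 123 against 167 CPM. Relative to the pool the Rps27l ratios were 0.49 (0.33 to 0.66) and 0.44 (0.33 to 0.56). In the deficient-labelled library Rps27l was also high in producers of Il17a and Ifng (0.61), Il17a with Il2 (0.42), Il2 (0.42) and in Ifng-only cells (0.38). In the wild-type-labelled library these classes stood at 0.12, -0.05, -0.12 and 0.06. Deficient-labelled cells making Ifng with Il2 (0.10) and Il17f producers (0.08) were nearer to the pool. Rps27 was on the other side, at -0.28 and -0.41, or 2821 against 3588 CPM and 3106 against 4354 CPM. Further members on the same side in both libraries were Rps21 (-0.20 and -0.19) and Rps16 (-0.12 and -0.12) below the pool, and Rps19bp1 (0.42 and 0.29), Rpl3 (0.19 and 0.14), Rpl15 (0.17 and 0.17) and Rpl28 (0.13 and 0.16) above it. With producers set at 10 UMIs, 0 members were that far off in both libraries.

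In cells making Ifng without Il17a or Il2 the corresponding count was 1 of 83, where 21.2% of genes were that far off. It was Rps19bp1, at 112 against 82.6 CPM in the deficient-labelled library and 113 against 87.3 CPM in the wild-type-labelled library, and the wild-type-labelled interval of its ratio to the pool (-0.15 to 0.83) included 0. The count was 0 with producers set at 3 or at 10 UMIs and with stricter barcode limits. Rps27 was again below the pool, by -0.17 and -0.15, and so were Rplp1 (-0.13 and -0.11), Rps15a (-0.09 and -0.11), Rpl37a (-0.09 and -0.12) and Rps27rt (-0.15 and -0.44). Above it were Rpl5 (0.11 and 0.11), Rpl10a (0.12 and 0.10), Rpl23a (0.10 and 0.10) and Rpl7l1 (0.63 and 0.10). Among the other classes, the count was 1 of 83 in producers of both Il17a and Ifng (Rps27rt, where 20.5% of genes were that far off) and 1 in Il2 producers (Rps19bp1, where 24.6% were). It was 0 in cells making Il17a with Il2, where 21.8% of genes were, 0 in cells making Ifng with Il2, where 25% were, and 0 in Il17f producers, where 19.5% were.

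Across single cells the members followed each other. The Spearman correlation of a member's share of UMIs with that of all other members had a median of 0.64 over 709 deficient-labelled cells and 0.66 over 1018 wild-type-labelled cells. The highest was that of Rpl32 in deficient-labelled cells (0.80) and that of Rpl13 in wild-type-labelled cells (0.83), and the lowest among members reaching 20 CPM were those of Rpl7l1 (0.02 and 0.02), Rps19bp1 (0.09 and 0.09), Rps27l (0.05 and 0.15) and Rps27rt (0.20 and 0.28). Cells share a library and shares a total, and low counts weaken such values, so they are a description. The ribosomal protein share had a correlation of -0.11 and -0.18 with the cell's UMI count and of -0.20 and -0.29 with its gene count.

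Among 2818 other genes averaging 50 CPM, expressed per UMI outside the pool, those that followed the ribosomal protein share most closely included Fau (0.79 in deficient-labelled and 0.79 in wild-type-labelled cells), which encodes Rps30 fused to a ubiquitin-like protein, the elongation factor genes Eef1a1 (0.67 and 0.65) and Eef1b2 (0.60 and 0.70), the ribosome-bound scaffold gene Rack1 (0.64 and 0.76), the nascent-chain binding gene Naca (0.59 and 0.64), Tpt1 (0.52 and 0.63) and Gm10076 (0.55 and 0.51). The opposite end was weaker, with Eea1 (-0.35 and -0.36), an early endosome tether, the osmotic stress factor gene Nfat5 (-0.32 and -0.37), the Notch coactivator gene Maml2 (-0.42 and -0.31), the ubiquitin ligase gene Cblb (-0.36 and -0.30), Kcnq5 (-0.29 and -0.31), Zswim6 (-0.29 and -0.30), Snd1 (-0.30 and -0.28) and the repressor gene Bach2 (-0.28 and -0.28). The 8 genes at this end spanned a median of 262 kb of the genome, against 3.55 kb for the first 8 and 24.7 kb for all 2818. Malat1 had correlations of -0.33 and -0.25.

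**Figure D5:**
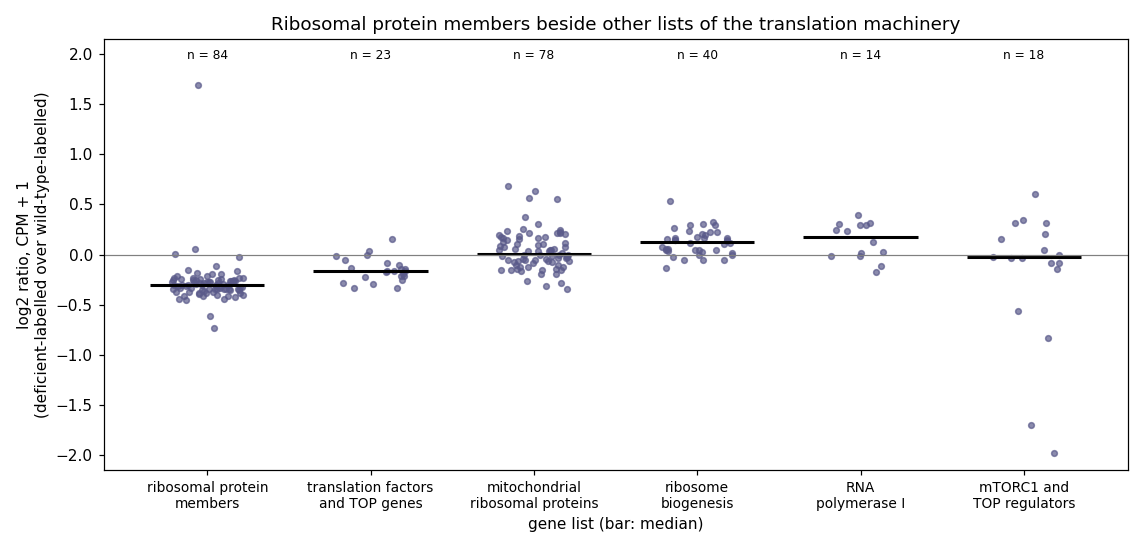
Log2 ratio of CPM with 1 CPM added, deficient-labelled over wild-type-labelled (y axis), for each gene of the ribosomal protein members and 5 other lists (x axis); points are genes averaging at least 1 CPM and bars are medians. The ribosomal protein median is -0.30, that of the translation factors -0.16, and those of ribosome biogenesis and RNA polymerase I 0.13 and 0.18.

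The lists of other genes of ribosome production had medians nearer to 0 or above it. Of 23 translation factor and related TOP genes, 20 were lower in the deficient-labelled library, 0 by 1.5-fold, with a median log2 ratio of -0.16, beside 50.6% of all genes lower. Within that list the genes that encode ribosome-bound proteins were closest to the members, Rack1 at 2086 CPM among deficient-labelled cells against 2634 CPM among wild-type-labelled cells (-0.34) and Fau at 4470 and 5618 CPM (-0.33), with Eif3l (128 and 125 CPM) and Hnrnpa1 (459 and 412 CPM) at the other end. Of 40 ribosome biogenesis genes, 33 were higher, again 0 by 1.5-fold, and the median was 0.13. Noc3l, of the pre-ribosome export machinery, stood at 131 and 90.5 CPM and the assembly GTPase gene Gtpbp4 at 438 and 349 CPM, with Tsr1 (65.2 and 71.4 CPM) and Nob1 (106 and 111 CPM) lowest.

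Of 14 measured RNA polymerase I genes (17 listed), which transcribe or help transcribe ribosomal RNA, 10 were higher (median 0.18), among them the initiation factor genes Taf1a (44.1 and 35.2 CPM) and Rrn3 (40.5 and 32.6 CPM), with Cd3eap (92.0 and 103.5 CPM) and Ubtf (83.9 and 90.8 CPM) lower. The 78 mitochondrial ribosomal protein genes were divided, 38 lower and 40 higher, with a median of 0.01. At least 1.5-fold higher were 2 of the 78, where 5.87% of all genes were. These were Mrpl34 (79.4 and 49.1 CPM) and Mrps26 (111 and 71.1 CPM), and the lowest were Mrps11 (29.3 and 37.5 CPM) and Mrpl14 (18.4 and 23.1 CPM). Among 18 mTORC1 and TOP regulators the median was -0.03, with 3 at least 1.5-fold lower, where 8.29% of all genes were, and 1 higher, where 5.87% were. The 3 were Ddit4, encoding an mTORC1 inhibitor (log2 ratio -1.97), Eif4ebp1 (-1.69) and Castor1 (-0.83). Ddit4 and Castor1 stayed under 20 CPM in both libraries. Eif4ebp1, encoding a translation inhibitor that mTORC1 switches off, was 3.26-fold lower (3.08 to 3.46), at 81.7 CPM among deficient-labelled cells against 267 CPM among wild-type-labelled cells, while Larp1, encoding the TOP-binding protein, stood at 440 and 353 CPM, Sesn1 at 21.8 and 14.1 CPM and Sesn2 at 20.2 and 22.4 CPM.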

How the data were processed

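The authors deposited raw UMI counts for each gene in each barcode of both libraries. Cell Ranger 7.0.0 made them, as the file headers record, and the submitters' processing notes name the mm10 build. Neither states the annotation, how intronic and multiply mapped reads were counted, or how cells were called. The 12 multiplexing tags were kept out of all totals. Symbols and gene identifiers came from the deposited feature list, and coordinates from GENCODE M21.

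UMIs of kept cells were summed per library and divided by the library total (CPM). A count of 0 allows up to 0.168 CPM in the deficient-labelled and 0.123 CPM in the wild-type-labelled library (3 counts). Log2 ratios used a pseudocount of 1 CPM, and folds are ratios without it. Intervals are 95%, exact binomial for shares and conditional binomial for ratios. They treat UMIs as independent and leave out the spread between cells, cultures and mice. The interval for cells below the wild-type-labelled median instead treats cells as independent and leaves out the spread between cultures and mice. With 1 library per genotype, no p-value was computed. Class membership was called once, on cells drawn down to 5000 UMIs at random, without replacement. Scrublet (scanpy 1.11.5, expected rate 5%) called 6 deficient-labelled and 5 wild-type-labelled doublets, which were kept.

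The members named are the 6 highest and 6 lowest ratios above 20 CPM, the 5 on each side of the pool in both libraries for Il17a-only and Ifng-only cells, and a fixed set; each list adds its 2 highest and 2 lowest genes among those reaching 20 CPM in 1 library. Rpl11, Rpl32, Ddit4 and Castor1 were named after their values were seen, and some genes that the rule selects are not reported here. The members and lists were chosen with earlier results of these data known. Alternatives included scaling by edgeR 4.0.16 and DESeq2 1.42.0 factors. The scripts (Python 3.11.15, NumPy 2.4.6, SciPy 1.17.1, pandas 2.3.3, R 4.3.3) were tested on simulated counts.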

Additional observations from a re-analysis of the deposited data

Results flagged for a closer look

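The ribosomal protein share of cells making Ifng without Il17a or Il2 stood on opposite sides of the cells with none of the 4 cytokines in the 2 libraries. In the deficient-labelled library the median of 31 such cells was 1.43 percentage points below (a difference of -1.43), and in the wild-type-labelled library the median of 21 such cells was 0.73 points above. The difference between the libraries was not tested, and the opposite sides depended on the settings. With producers set at 10 UMIs the deficient-labelled median was 26.0%, above the 25.8% of the cells with none, and with producers set at 3 UMIs the wild-type-labelled median was 32.2%, below the 32.3% of the cells with none. With cytokine, chemokine and granule genes left out of the total, the summed share of the class was above that of the cells with none in both libraries, at 28.3 against 27.3% in the deficient-labelled and 33.0 against 31.5% in the wild-type-labelled library.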

How the results depend on the processing

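No paired analysis was possible because each genotype has 1 library. The deficient-labelled library had the lower ribosomal protein share under every alternative run. The gap of -5.74 percentage points was -4.39 without cytokine genes in the total, -6.05 without mitochondrial genes, -5.85 with barcodes limited to 1000 genes or more and 5% mitochondrial UMIs or less, -5.47 over every deposited barcode and -6.17 in cells with fewer than 5 G2/M UMIs per 5000. It was -6.03 as a median over cells, -5.68 with the 8 classes weighted equally and -5.89 with near copies and non-subunits replaced by genes of other ribosome-associated proteins. Within the 8 classes, all 72 gaps recomputed under alternatives were negative, between -8.15 and -2.91 points.

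The members' median log2 ratio of -0.30 was -0.29 over every barcode and with median ratio size factors, and -0.31 with the stricter barcode limits, in cells low in G2/M UMIs and with TMM factors. Restricting members to 20 CPM left 0 at least 1.5-fold higher, since it drops Rpl39l. In cells low in G2/M UMIs, 5 members in place of 3 were beyond 0.32 of the pool between libraries; the cause was not tested. For Il17a-only cells, the count of 2 members off the pool in both libraries was 1 with stricter barcode limits, 1 in cells low in G2/M UMIs and 0 at 10 UMIs. For Ifng-only cells, the count of 1 was 0 with stricter limits and at cutoffs of 3 and 10 UMIs; the cause was not tested. The directions between the libraries did not reverse in these alternatives, but the side on which Ifng-only cells stood of the cells with none did: in the deficient-labelled library at 10 UMIs and without cytokine genes in the total, and in the wild-type-labelled library at 3 UMIs. Small classes (21 to 47 cells) limit the class values, and Rpl39l, with 22 UMIs in the wild-type-labelled library, is limited by depth.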

Other observations

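The barcodes left out by the filters, nearly all for their mitochondrial share, carried few ribosomal protein transcripts. Their median ribosomal protein share was 5.99% in the deficient-labelled library (45 barcodes, median 2488 UMIs) and 6.05% in the wild-type-labelled library (131 barcodes, median 2590 UMIs), against 24.3 and 30.4% in kept cells.

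The 5 rows of the feature list with a ribosomal protein pseudogene symbol, which the members leave out, summed to 119 CPM in the deficient-labelled and 144 CPM in the wild-type-labelled library. That equals 0.0491 and 0.0481% of the members' UMIs.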
